A study of Homo sapiens with 24 samples.

Results

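The comparison asks how RNA levels differ between cells with and without GPRC5A during exposure to the inflammatory cytokine TNFα, in HT-29, a human colorectal adenocarcinoma line of epithelial origin. The KO group was 3 libraries from GPRC5A knockout cells given 10 ng/mL TNFα for 8 h, and the WT group was 3 libraries from wild-type HT-29 given the same. They were chosen by their labels alone and are 6 of the 24 libraries in the series. The other 18 libraries cover both genotypes with the vehicle DMSO at 0.1%, with 50 µM 7-fluorotryptamine (7FTA), and with TNFα and 7FTA together, 3 libraries a group, all for 8 h. Of these, the 6 libraries with TNFα and 7FTA and the 6 with DMSO are used below for comparison. Whether the TNFα groups also held DMSO was not stated in the labels. The labels name neither the edit nor how many knockout clones were used, so the KO libraries may come from 1 clone, and a difference between clones of the line and an effect of the knockout cannot be told apart. They also do not say that the 3 libraries of a group came from separate cultures, so p-values measure only the spread between these libraries, which may be technical.

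GPRC5A encodes an orphan receptor of the class C family of G protein-coupled receptors, first described as a retinoic acid-induced gene and expressed in many epithelia. TNFα binds TNFR1 on epithelial cells and, through TRADD, RIPK1, the LUBAC ubiquitin ligase and the TAK1 and IKK kinases, releases NF-κB, which drives chemokines, adhesion molecules and its own inhibitors. Interferons act through receptor-bound Janus kinases such as JAK1 and TYK2. In type I and III signalling, STAT2 and IRF9 take part in a complex that binds interferon-stimulated response elements in the promoters of antiviral genes.

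Depth was 16782857 to 22109743 counts a library in these 6. Libraries of 1 group differed by 2.07 to 4.76 times the variance that counting alone gives (chi-square per degree of freedom), and libraries of different genotypes by 32.3 to 36.9 times. Mitochondrial genes took 0.604% to 1.15% of counts, the most in WT library 2. TMM scaling factors were 0.944 to 0.957 in WT and 1.00 to 1.02 in KO, so they moved with the genotype. The 10 colon epithelium markers summed to 18866 to 20127 CPM (counts per 1e6 of the TMM-scaled library total) in WT and 16196 to 16808 CPM in KO, and the part of this in the results was not tested. The 7 immune markers summed to 3.57 to 4.56 CPM in WT and 2.97 to 3.76 CPM in KO, and the B and T cell markers MS4A1 and CD3E had no count in any of the 6. Fibroblast markers stayed at or below 1.601 CPM and endothelial markers at or below 1.19 CPM in each library. Within the epithelial list, the calls were mixed: CEACAM5, LGALS4, VIL1, CDH1 and EPCAM were called higher in KO, and KRT8, KRT18 and the intestinal homeobox gene CDX2 were called lower. EPCAM lost its call without WT library 1 or 2 or KO library 2 (adjusted p = 0.0609 to 0.131).

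GPRC5A (ENSG00000013588, GRCh38 chromosome 12, 12890782 to 12917937, plus strand) was counted at 243, 243 and 249 CPM in the WT libraries and 78.05, 78.6 and 77.01 CPM in the KO libraries. All 3 KO libraries lay below all 3 WT libraries, but the transcript was still present. The means were 245 ± 3.64 CPM in WT and 77.9 ± 0.8195 CPM in KO (SD, n = 3), a log2 difference of -1.65 ± 0.038 (KO minus WT, edgeR quasi-likelihood test, adjusted p = 6.94e-36). Counts over a whole gene do not show whether an edited transcript is functional, and fewer cells with the transcript and less of it per cell cannot be told apart in bulk RNA.

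Across 14059 genes tested, 3590 (25.5%) were called higher in KO and 3525 (25.1%) lower at a Benjamini-Hochberg adjusted p under 0.05. With a change of at least 2-fold as well, 664 genes (4.72%) were higher and 410 (2.92%) lower. Scaling by library totals alone gave 5001 higher and 2378 lower, because it raised the median log2 difference of all genes from 0.0078 to 0.10. A call of a small difference here is therefore common, and the counts within gene lists below are to be read against those shares. Where libraries of the groups are said not to overlap, this describes the values and is no further test. IFNAR1, below, had no overlap and no call, and the share of all genes without overlap is not given here. The lists with the largest shares of tested members higher were the interferon-stimulated effectors, MHC class I presentation and nucleic acid sensors. Those with the largest shares lower were prostaglandin metabolism and the retinoic acid genes.

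**Figure D1:**
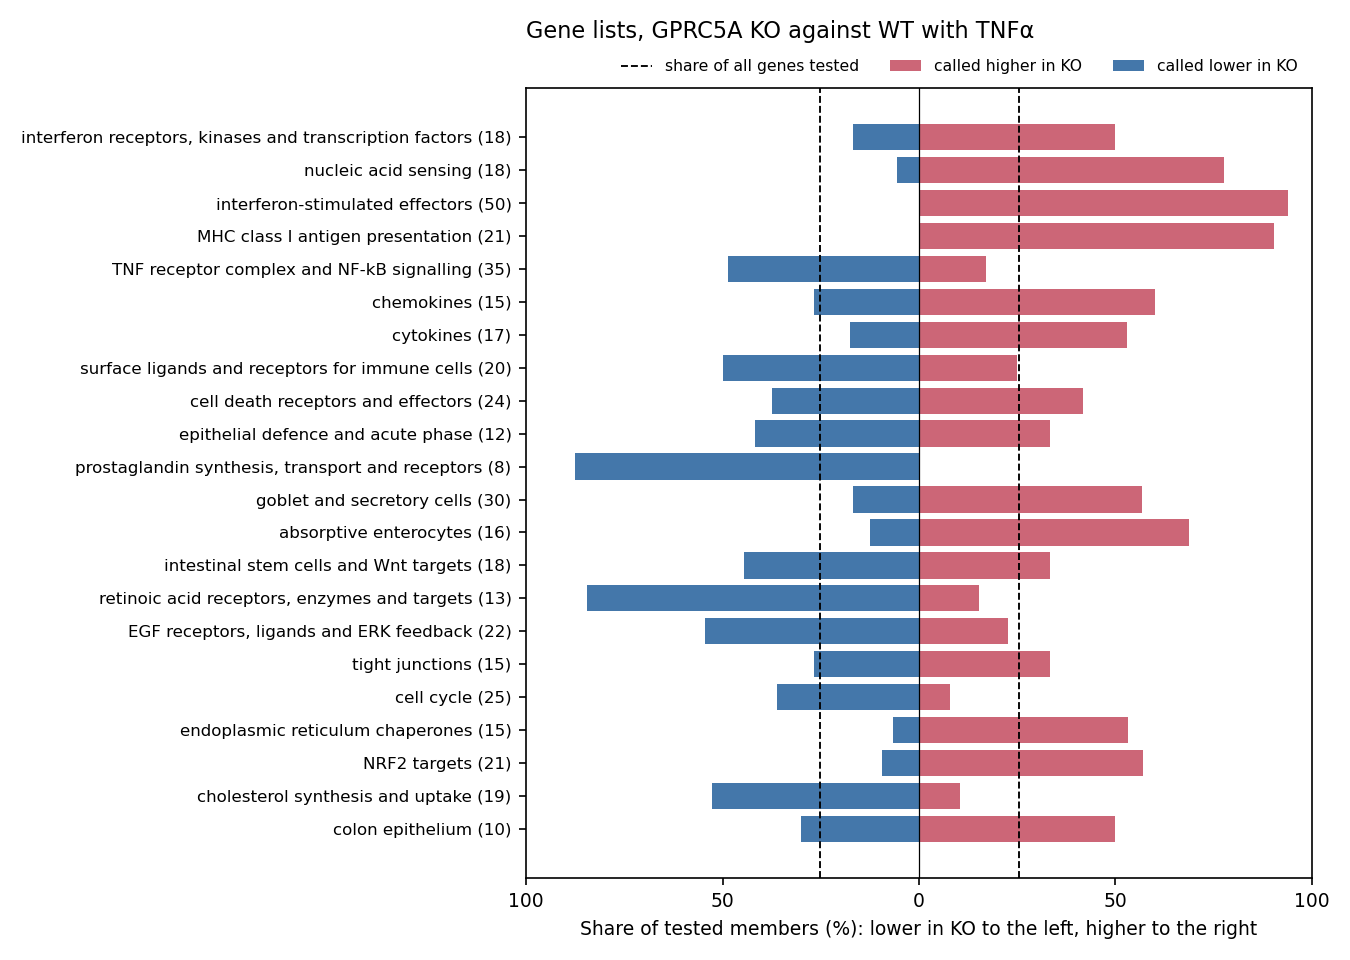
Share of tested members of each list called higher (red, right) or lower (blue, left) in KO than in WT with TNFα, with the number of tested members in brackets. Dashed lines mark 25.5% and 25.1%, the shares among all genes tested. Of the interferon-stimulated effectors 47 of 50 were called higher and 0 lower.

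Interferon-stimulated effectors were the most uniform group: 47 of 50 tested were called higher in KO with TNFα, 34 of them by at least 2-fold, and none lower. Their median log2 difference was 1.45, beside 0.0078 for all genes. Of the nucleic acid sensors 14 of 18 were higher and 1 lower, and 9 at least 2-fold higher. The lower one was CGAS, the cytosolic DNA sensor (-0.21 ± 0.07), a call lost without WT library 1 or 3 or KO library 2 (adjusted p = 0.0531 to 0.119), with these 6 libraries alone (0.0867) and on library totals alone (0.167). Promoters of 6 interferon-related genes, 3 of them effectors and the others from the MHC class I, cytokine and chemokine lists, are shown first.

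The promoters below come from the RefSeq table (build GRCh38.p14, 250 bases before to 50 after the gene's start) and are 59 bases each, written 5′ to 3′ on the strand of the gene. Capitals mark every match to GAAANNGAA, the core of an interferon-stimulated response element, or to its reverse complement TTCNNTTTC. These 6 genes were chosen to show how the element lies in genes that rose by different amounts.
ISG15 (chr1:1013371-1013429, plus strand): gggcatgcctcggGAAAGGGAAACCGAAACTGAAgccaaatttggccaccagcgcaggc
IFIT1 (chr10:89392496-89392554, plus strand): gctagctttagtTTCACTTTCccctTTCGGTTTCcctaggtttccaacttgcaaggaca
IFIT3 (chr10:89327851-89327909, plus strand): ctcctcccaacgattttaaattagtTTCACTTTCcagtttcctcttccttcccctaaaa
TAP1 (chr6:32853798-32853856, minus strand): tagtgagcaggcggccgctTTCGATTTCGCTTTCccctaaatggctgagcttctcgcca
TNFSF10 (chr3:172523451-172523509, minus strand): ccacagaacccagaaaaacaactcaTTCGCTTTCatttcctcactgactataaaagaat
CXCL10 (chr4:76023685-76023743, minus strand): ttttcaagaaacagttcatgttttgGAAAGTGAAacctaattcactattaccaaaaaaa

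Over the whole 300 bases ISG15 held 3 matches, IFIT3, IFIT1, TAP1, TNFSF10 2 each and CXCL10 1, not all of which fall in the stretches printed. Those shown lay before the annotated start of the gene. Of the 50 effectors, 39 matched a promoter in the table by symbol, and 28 of these (71.8%) held the element, beside 638 (6.34%) of the 10069 tested genes with a promoter and 8.29% of all 27305 promoters of the same length. MHC class I genes held it in 9 of 17 (52.9%), nucleic acid sensors in 4 of 12 (33.3%), and genes of the TNF receptor and NF-κB list in 5 of 30 (16.7%). The effector list was made of known interferon-stimulated genes, so its share does not describe the genotype difference. Promoters of genes at least 2-fold higher in KO held the element in 57 of 433 (13.2%), and those of genes at least 2-fold lower in 20 of 275 (7.27%). The palindromic GAS-type motif TTCNNNGAA was in 8 of the 39 effector promoters (20.5%), in 6.22% of tested genes' promoters and in 7.88% of all of them. A match is a description of the letters only, and it was not tested whether anything binds there.

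Interferon ligands were near the limit of detection. IFNB1, a type I interferon, had 2 counts over the 3 WT libraries and 6 over the 3 KO libraries, a depth-scaled ratio of 2.73 (exact 95% interval 0.488 to 27.7, counting error only). The type III interferon IFNL1 had 5 and 10 counts (ratio 1.82, interval 0.567 to 6.79). Neither interval excludes equal levels. IFNL3 had no count in any WT library and 2, 4 and 5 counts in the KO libraries. With WT set to 3 counts over the group the depth-scaled ratio was 3.34. This has no interval and is not a lower limit, since the error of the KO counts is left out. IFNL3 is near-identical to IFNL2 (4 counts in WT, 6 in KO), and reads could be split between them. Without the filter on low counts IFNL3 was called higher (adjusted p = 0.0201), as the 1 ligand of 6 then tested. IFNE, the only ligand that passed the filter, had a log2 difference of -0.42 ± 0.45 (adjusted p = 0.452). IFNG and IFNK had no count in the series.

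The receptors and the kinase named here differed by less than 2-fold. IFNAR1, a type I receptor chain, was at 41.4, 41.4 and 42.5 CPM in the WT libraries and 41.2, 41.4 and 40.6 CPM in the KO libraries. Before rounding, each KO value lay just below the WT values, and the difference did not pass the test (-0.025 ± 0.058, adjusted p = 0.743). The ligand-binding type II chain IFNGR1 had a log2 difference of 0.10 ± 0.052 (adjusted p = 0.118), and its partner IFNGR2 was lower in every KO library (111, 112 and 115 CPM in WT, 81.8, 88.8 and 78.8 CPM in KO, -0.44 ± 0.045). The type III chain IFNLR1 was at 0.65 ± 0.31 (adjusted p = 0.0766). The kinase JAK1 was higher (0.45 ± 0.054, adjusted p = 1.21e-09).

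Among the signal transducers and their regulators, 9 of 18 tested were higher and 3 lower (IFNAR2, IRF3 and IFNGR2). The call of IFNAR2 was lost without WT library 2 or 3 or KO library 1 (adjusted p = 0.0674 to 0.21), in DESeq2 (0.0541) and on library totals alone (0.135). STAT2, a transcription factor of type I and III signalling, was counted at 7.14, 10.2 and 10.4 CPM in the WT libraries and 17.7, 22.4 and 19.9 CPM in the KO libraries, a log2 difference of 1.099 ± 0.12 (adjusted p = 8.68e-10). The lowest KO library stood well above the highest WT library. IRF9, the DNA-binding subunit, was low, at 0.492, 0.966 and 0.364 CPM in WT and 2.199, 1.48 and 1.52 CPM in KO, again without overlap (1.48 ± 0.35, adjusted p = 0.000421). IRF7, the inducible amplifier of interferon genes, was at 32.3, 34.4 and 29.3 CPM in the WT libraries and 69.3, 75.7 and 69.9 CPM in the KO libraries (1.16 ± 0.089). USP18, an interferon-induced inhibitor of the type I receptor, had the largest difference on this list, from 3.02, 3.06 and 3.04 CPM in WT to 13.3, 12.05 and 12.5 CPM in KO (2.05 ± 0.14, adjusted p = 1.14e-17). IRF1, which NF-κB also induces, changed by much less: 68.8, 67.1 and 63.5 CPM in the WT libraries and 68.6, 75.6 and 74.3 CPM in the KO libraries, groups that overlapped, and 0.13 ± 0.049 (adjusted p = 0.0236), a call that was lost without WT library 3 (adjusted p = 0.149), KO library 2 (0.111) or KO library 3 (0.0892).

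Of the sensors, DDX58 (RIG-I), which detects RNA with triphosphate ends, was at 22.8, 23.7 and 24.03 CPM in the WT libraries and 48.5, 55.8 and 49.4 CPM in the KO libraries (1.12 ± 0.072, adjusted p = 2.37e-18). IFIH1 (MDA5), the sensor of long double-stranded RNA, was at 28.9, 30.8 and 30.95 CPM in the WT libraries and 73.1, 89.1 and 72.7 CPM in the KO libraries (1.37 ± 0.068). TLR3, the endosomal double-stranded RNA receptor, was at 1.29, 0.697 and 1.15 CPM in the WT libraries and 4.301, 4.09 and 3.801 CPM in the KO libraries (1.97 ± 0.23). All 3 sensors had every KO library above every WT library. OAS2, which makes the oligoadenylate messenger that activates RNase L, was at 9.48, 11.00 and 8.98 CPM in the WT libraries and 83.7, 94.1 and 74.4 CPM in the KO libraries, the largest difference of the list at 3.09 ± 0.12 (adjusted p = 3.67e-15). EIF2AK2 (PKR), the kinase that stops translation, rose less (0.86 ± 0.047). The adaptors and kinases below the sensors moved little: MAVS was at 0.18 ± 0.055 and was called higher, though not without WT library 1 (adjusted p = 0.0761), while TBK1 was at 0.043 ± 0.048 (adjusted p = 0.479) and IKBKE at -0.015 ± 0.073 (adjusted p = 0.885).

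Among effectors, ISG15, the ubiquitin-like modifier, was counted at 47.2, 51.5 and 50.5 CPM in the WT libraries and 129, 143 and 129 CPM in the KO libraries (1.42 ± 0.063, adjusted p = 2.6e-19). MX1, a GTPase that traps viral nucleocapsids, was at 13.7, 16.6 and 14.4 CPM in the WT libraries and 90.7, 103 and 80.8 CPM in the KO libraries (2.61 ± 0.14, adjusted p = 1.67e-11). IFIT1, which binds RNA lacking a methylated cap, was at 9.42, 9.98 and 9.53 CPM in the WT libraries and 52.4, 62.6 and 49.7 CPM in the KO libraries (2.502 ± 0.12, adjusted p = 2.69e-14). In each of these the lowest KO library was more than 2 times the highest WT library. IFIT3, the partner of IFIT1, was at 11.3, 13.4 and 14.7 CPM in the WT libraries and 49.8, 53.5 and 45.7 CPM in the KO libraries (1.91 ± 0.086). TRIM22, an antiviral E3 ligase, and SAMD9L, a restriction factor, had the largest differences, at 3.05 ± 0.24 and 3.002 ± 0.25. TRIM22 was at 1.23, 0.966 and 0.971 CPM in WT and 8.89, 9.55 and 7.96 CPM in KO, and SAMD9L at 1.66, 1.18 and 0.425 CPM and 8.89, 10.7 and 6.93 CPM, so both were scarce in WT. XAF1, a pro-apoptotic interferon target, was at 2.65 ± 0.17 and IFI44L at 2.63 ± 0.15. The 3 members not called were HERC5 (0.74 ± 0.35, adjusted p = 0.0703), PLAAT4 (0.044 ± 0.073, adjusted p = 0.645) and IFITM2 (-0.0046 ± 0.075, adjusted p = 0.968). IFITM2 shares long stretches with IFITM1 and IFITM3, so reads could be split among them.

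**Figure D2:**
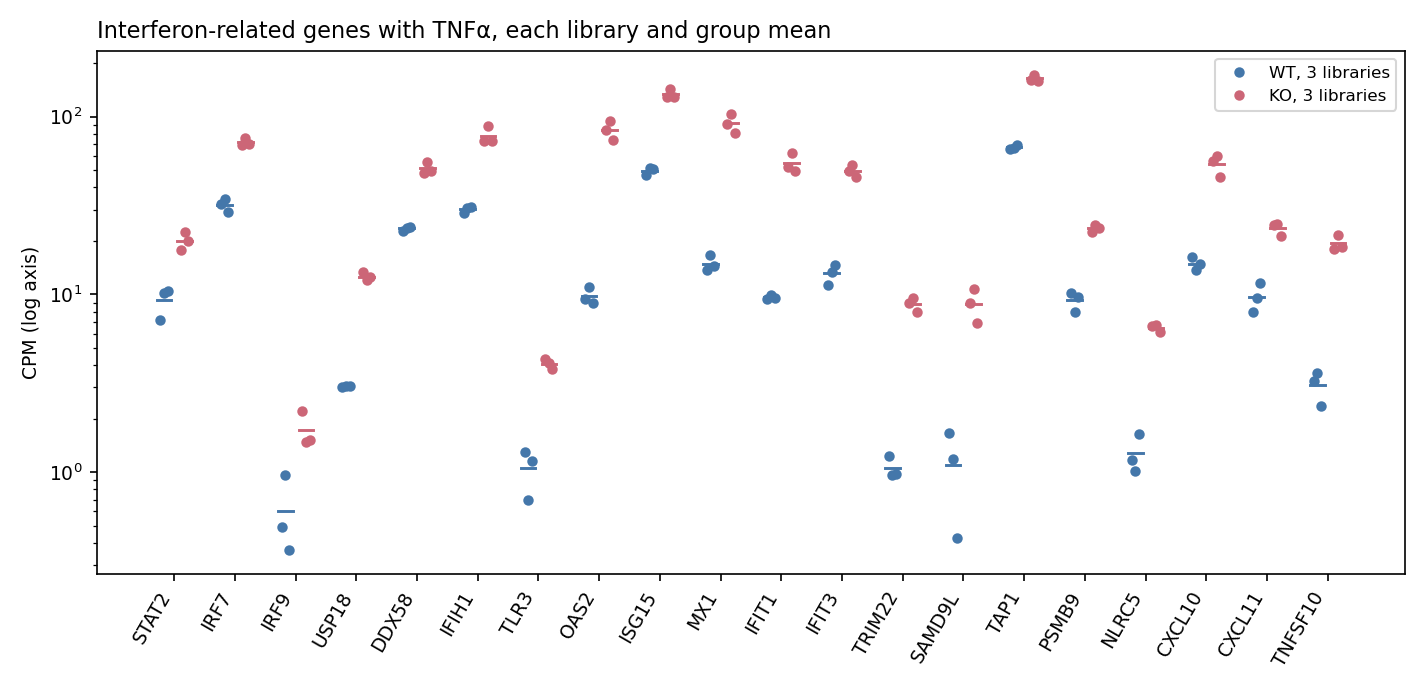
CPM on a log axis of 20 interferon-related genes in each of the 3 WT (blue) and 3 KO (red) libraries with TNFα, with bars at the group means. In each gene every KO library lies above every WT library, and the genes were chosen among those with the clearest differences.

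The genotype difference of the effectors was present with DMSO and had a larger median with TNFα. The DMSO comparison uses other libraries of the same lines, and in it 3374 of 14059 genes (24.0%) were called higher and 3389 (24.1%) lower. With DMSO, 42 of the 50 effectors were called higher and 2 lower, with a median log2 difference of 0.76. The difference between the 2 genotype effects was itself tested in the same model (KO minus WT with TNFα, less KO minus WT with DMSO), which called 288 genes (2.05%) more positive and 211 (1.50%) more negative. It called 37 of 50 effectors, 8 of 18 sensors and 8 of 21 MHC class I genes, all in the positive direction. A positive value is not always a larger difference. IFITM2, PLAAT4 and TAPBPL (0.38, 0.42 and 0.67) were below WT with DMSO and not called with TNFα. OAS2 shows the pattern: 5.02 ± 0.326 CPM in WT and 15.4 ± 0.902 CPM in KO with DMSO (SD, n = 3), against 9.82 ± 1.05 CPM and 84.04 ± 9.85 CPM with TNFα. Its log2 difference went from 1.604 to 3.09, a change of 1.48 ± 0.21 (adjusted p = 0.000118). HERC6, a paralogue of the ISG15 ligase HERC5, went from 0.62 to 1.85 (adjusted p of the change = 1.4e-10). EPSTI1 was 0.095 with DMSO (adjusted p = 0.8) and 1.900 with TNFα (adjusted p of the change = 0.000241). In contrast, STAT2 was 1.01 with DMSO and 1.099 with TNFα, a change of 0.086 ± 0.17 (adjusted p = 0.904).

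**Figure D3:**
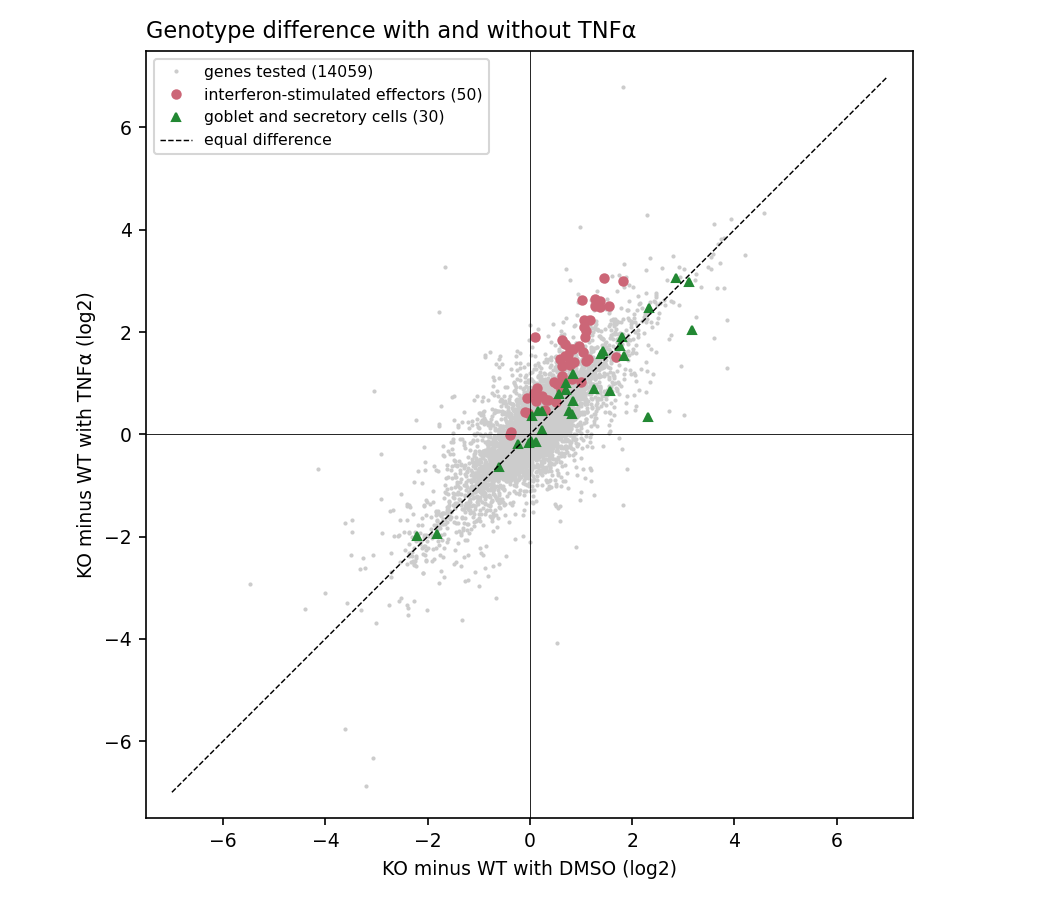
KO minus WT log2 difference with TNFα (vertical) against that with DMSO (horizontal) for each of 14059 genes (grey), with interferon-stimulated effectors (red circles) and goblet and secretory genes (green triangles). Most red circles lie above the dashed line of equal difference, and the green triangles lie around it.

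The same genotype difference was measured again in the 6 libraries with TNFα and 7FTA. None of them enter the group means of the comparison with TNFα alone, but the spread was estimated from all 24 libraries. There 3634 genes (25.8%) were called higher and 3668 (26.1%) lower. Of the 7115 genes called with TNFα, 5902 were called in the same direction with TNFα and 7FTA, and 880 of the 1074 called at 2-fold or more were. Most were also called in the same direction with DMSO, 5364 of the 7115 and 847 of the 1074. The difference of genotype effects between TNFα and DMSO was called for 84 of the 1074. Of the effectors, 47 of 50 were called higher in that comparison too, with a smaller median of 1.19. MX1 was 2.34 there beside 2.61 with TNFα alone, TRIM22 3.03 beside 3.05, and IFIT1 1.72 beside 2.502. Whether 7FTA changed these differences was not tested here.

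MHC class I genes rose with the effectors: 19 of 21 tested were called higher, 4 by at least 2-fold and none lower, with a median log2 difference of 0.67. NLRC5, the transactivator of class I genes, was at 1.17, 1.02 and 1.64 CPM in the WT libraries and 6.596, 6.76 and 6.13 CPM in the KO libraries (2.35 ± 0.19, adjusted p = 1.65e-14). TAP1, which helps carry peptides into the endoplasmic reticulum, was at 66.05, 66.5 and 69.7 CPM in the WT libraries and 162, 173 and 159 CPM in the KO libraries (1.29 ± 0.05, adjusted p = 1.55e-26), and PSMB9, an immunoproteasome subunit, at 10.2, 7.94 and 9.71 CPM in the WT libraries and 22.5, 24.7 and 23.7 CPM in the KO libraries (1.35 ± 0.10). In all 3 genes the lowest KO library was more than 2 times the highest WT library. The classical heavy chains changed less: HLA-B was at 0.67 ± 0.075 and HLA-C at 0.91 ± 0.045, and B2M, their light chain, at 0.42 ± 0.056. These HLA genes are polymorphic near-copies, so reads could be misassigned among them. ERAP2, which trims peptides, was at 115, 120.3 and 126 CPM in the WT libraries and 214, 230.3 and 219.98 CPM in the KO libraries (0.88 ± 0.039). The 2 members not called were TAPBPL (0.21 ± 0.099, adjusted p = 0.0686) and the chaperone CANX (-0.043 ± 0.029, adjusted p = 0.221).

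Most class II genes (9 of 14) were below the filter on low counts. HLA-DRA had no count in any of the 6 libraries, and its transactivator CIITA had 2 counts in WT and 6 in KO. Of 5 tested members, the invariant chain CD74 was lower, at 35.03, 35.9 and 36.96 CPM in the WT libraries and 20.9, 20.8 and 18.2 CPM in the KO libraries (-0.85 ± 0.078, adjusted p = 4.26e-13), and so was CTSS, the protease that degrades it (-0.51 ± 0.074). Both were further below WT with DMSO, at -1.63 and -1.49, and the change with TNFα passed the test (adjusted p = 5.56e-05 and 1.5e-07). HLA-DMA was called higher (0.45 ± 0.18, adjusted p = 0.0374), a call lost without WT library 1 or 3 or KO library 1 or 2 or 3 (adjusted p = 0.0521 to 0.128), in DESeq2 (0.0733) and without the filter on low counts (0.0635).

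The TNF receptor and NF-κB list had more members lower than higher, by small amounts. Of 35 members, 17 were called lower, 1 of them by at least 2-fold, and 6 higher, and the median was -0.13. TNFRSF1A (TNFR1) was at 125, 118 and 119 CPM in the WT libraries and 115, 119 and 129 CPM in the KO libraries, with overlapping groups (0.0039 ± 0.041, adjusted p = 0.947). TAB2, the ubiquitin-binding partner of TAK1, was lower at 128, 124 and 123 CPM in the WT libraries and 74.2, 75.5 and 74.8 CPM in the KO libraries (-0.74 ± 0.041, adjusted p = 8.7e-21), and TRAF1, the member past 2-fold, was at -1.02 ± 0.38, a call lost without WT library 2 or 3 or KO library 1 or 3 (adjusted p = 0.0559 to 0.195) and in DESeq2 (0.0877). Of the NF-κB subunits, NFKB1 was at 257, 241 and 248 CPM in the WT libraries and 177, 184 and 182 CPM in the KO libraries (-0.46 ± 0.035), RELB at -0.47 ± 0.053, NFKB2 at -0.25 ± 0.04 and RELA at -0.17 ± 0.043, all called lower, though RELA not on library totals alone (adjusted p = 0.117). The inhibitors did not move together. NFKBIA (IκBα), an early NF-κB target, was at 139, 142 and 144 CPM in the WT libraries and 140.1, 159.9 and 145 CPM in the KO libraries, groups that overlapped (0.065 ± 0.046, adjusted p = 0.252), and TNFAIP3 (A20), which edits ubiquitin on RIPK1, was lower (-0.41 ± 0.069, adjusted p = 3e-06). Higher members included BIRC3, the ubiquitin ligase cIAP2 (140.3, 140.4 and 149 CPM in the WT libraries and 184, 201 and 188 CPM in the KO libraries, 0.41 ± 0.043), the LUBAC subunit RBCK1 (0.49 ± 0.037) and the deubiquitinase CYLD (0.80 ± 0.09). On library totals alone NFKBIA and TNFRSF1A were called higher (adjusted p = 0.00352 and 0.0406). Of the 35 members, 12 lie on chromosomes 6, 8, 9, 13 and 19, described last, and 10 of those 12 were lower. Off them 7 of 23 were lower and 6 higher, beside 2350 lower and 3076 higher of all 11106 genes there. The excess of lower members thus lay mainly on those chromosomes.

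The chemokine list had 9 of 15 members called higher, 4 by at least 2-fold, and 4 lower. The largest differences were in CXCL10, CXCL11, CCL22 and CCL5. CXCL10 was at 16.2, 13.7 and 14.7 CPM in the WT libraries and 56.7, 59.99 and 45.97 CPM in the KO libraries (1.86 ± 0.10, adjusted p = 3.01e-17), and CXCL11, like it a CXCR3 ligand, at 7.94, 9.55 and 11.7 CPM in the WT libraries and 24.6, 25.04 and 21.3 CPM in the KO libraries (1.28 ± 0.11). Every KO library exceeded every WT library for both. CCL22 was at 1.64 ± 0.54, a call lost without WT library 1 (adjusted p = 0.0557) and in DESeq2 (0.132). CCL5 was at 1.47 ± 0.34, and CCL28, a mucosal chemokine for plasma cells, at 0.88 ± 0.17. CXCL8 (IL-8), which attracts neutrophils, was lower at 1054, 1032 and 1011 CPM in the WT libraries and 736, 798 and 709.8 CPM in the KO libraries (-0.46 ± 0.082, adjusted p = 0.000135), and CXCL3, CXCL6 and CXCL17 were the other 3 called lower. For CXCL6 the call was lost without WT library 3 or KO library 1 or 2 (adjusted p = 0.055 to 0.0612) and in DESeq2 (0.055). CXCL1, of the same neutrophil group, overlapped between groups (63.2, 60.6 and 55.1 CPM in the WT libraries and 64.1, 74.6 and 62.9 CPM in the KO libraries, 0.17 ± 0.067, adjusted p = 0.0347) and lost its call without WT library 2 (adjusted p = 0.0563) or 3 (0.220), without KO library 2 (0.309) and in DESeq2 (0.0844). CCL20 was at 9.05, 9.603 and 9.35 CPM in the WT libraries and 10.7, 14.8 and 12.4 CPM in the KO libraries (0.43 ± 0.14, adjusted p = 0.0107), a call lost without KO library 2 (0.0974). With DMSO only 1 chemokine was called higher and the same number of 4 were called lower, and the difference of genotype effects was called for CXCL11 (adjusted p = 0.000271), CXCL1 (0.0106) and CCL28 (0.0404), all positive. For CXCL10 that difference did not pass (1.18 ± 0.44, adjusted p = 0.157).

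Of 17 cytokines tested, 9 were higher and 3 lower. TNFSF10 (TRAIL), a death ligand and interferon target, was at 3.26, 3.59 and 2.37 CPM in the WT libraries and 17.9, 21.7 and 18.4 CPM in the KO libraries (2.64 ± 0.14, adjusted p = 1.36e-21), and TNFSF9 (4-1BBL), a T cell costimulator, at 0.677, 0.751 and 0.8500 CPM in the WT libraries and 2.68, 3.62 and 3.35 CPM in the KO libraries (2.07 ± 0.25). Neither gene overlapped between groups. IL15, which supports intraepithelial lymphocytes, was at 1.098 ± 0.19, IL18 at 0.79 ± 0.13, and TNF itself at 1.21 ± 0.25 from low levels (1.05, 2.31 and 1.46 CPM in WT, 3.63, 4.15 and 3.53 CPM in KO). LIF, a cytokine of the IL-6 family, was lower at 60.5, 51.02 and 46.7 CPM in the WT libraries and 27.5, 24.6 and 30.5 CPM in the KO libraries (-0.93 ± 0.077), as were the growth factors CSF1 (-0.90 ± 0.12) and CSF2 (-1.698 ± 0.31). IL32 rose by 0.18 ± 0.066 (adjusted p = 0.0224), and not without WT library 2 (0.186) or KO library 3 (0.0635).

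Surface molecules read by immune cells were more often lower than higher, 10 against 5 of 20. CEACAM1, an inhibitory receptor ligand, was at 352, 329 and 329 CPM in the WT libraries and 145, 156 and 149 CPM in the KO libraries (-1.16 ± 0.036, adjusted p = 1.43e-30), well separated. CD274 (PD-L1) was low and lower still, at 5.54, 5.204 and 4.55 CPM in the WT libraries and 2.77, 2.43 and 2.59 CPM in the KO libraries (-0.97 ± 0.17), and ICAM1, the adhesion molecule that NF-κB induces, was at 102, 99.03 and 97.8 CPM in the WT libraries and 71.5, 74.7 and 73.1 CPM in the KO libraries (-0.45 ± 0.048). Among ligands of the natural killer receptor NKG2D, MICB and ULBP1 were at -1.82 ± 0.53 and -2.96 ± 0.83, the latter with 3 counts in all KO libraries. No value is given here for MICA, ULBP2 and ULBP3, which are also on the list. CD55, which protects cells from complement, was higher at 148, 132 and 139 CPM in the WT libraries and 228, 235 and 219.9 CPM in the KO libraries (0.71 ± 0.043), LGALS9 at 30.5, 32.3 and 30.7 CPM in the WT libraries and 58.02, 64.1 and 61.1 CPM in the KO libraries (0.97 ± 0.06), and CD200, CD47 and TNFRSF14 were the others called higher. Of the 10 members on chromosomes 6, 8, 9, 13 and 19, 8 were lower and 0 higher. Of the 10 elsewhere, 2 were lower and 5 higher. On library totals alone the list held 9 lower and 9 higher.

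Death genes were divided, 10 of 24 higher and 9 lower. The receptors were lower: FAS was at 22.9, 22.2 and 21.2 CPM in the WT libraries and 10.3, 8.07 and 7.200 CPM in the KO libraries (-1.38 ± 0.094, adjusted p = 2.66e-17), TNFRSF10B (DR5), a receptor for TRAIL, at 153, 143 and 135 CPM in the WT libraries and 87.6, 85.04 and 86.98 CPM in the KO libraries (-0.73 ± 0.042), and TNFRSF10A (DR4) at -0.68 ± 0.062. The ligand TNFSF10 and these receptors changed in opposite directions. MCL1, an inhibitor of mitochondrial apoptosis, was at 615, 589.6 and 601 CPM in the WT libraries and 417, 404 and 442 CPM in the KO libraries (-0.52 ± 0.035). Genes of pyroptosis and necroptosis were among those higher: GSDMB, a pore-forming gasdermin, was at 4.49, 4.29 and 4.37 CPM in the WT libraries and 12.04, 11.3 and 11.00 CPM in the KO libraries (1.38 ± 0.13), CASP1 at 0.862, 0.912 and 0.8500 CPM in the WT libraries and 3.58, 1.96 and 2.55 CPM in the KO libraries (1.63 ± 0.31), and RIPK3 at 0.91 ± 0.17. GSDMB was -0.037 with DMSO (adjusted p = 0.862), and the difference of effects was called (adjusted p = 1.49e-06).

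Epithelial defence genes were mostly too low to test (15 of 27). Of 12 tested, 4 were higher (CFB, PIGR, SLPI and TNFAIP2) and 5 lower, against 5 and 4 on library totals alone. The call of SLPI, a secreted protease inhibitor, was lost without WT library 1 or 3 or KO library 1 or 2 or 3 (adjusted p = 0.0582 to 0.15), in DESeq2 (0.0842) and without the filter on low counts (0.077). CFB, of the alternative complement pathway, was at 1.53 ± 0.33. SOD2, a mitochondrial antioxidant enzyme and classical NF-κB target, was at 138, 136 and 137 CPM in the WT libraries and 94.1, 101 and 96.2 CPM in the KO libraries (-0.50 ± 0.046). LCN2, which sequesters bacterial siderophores, differed little (151, 152 and 153 CPM in the WT libraries and 131, 147 and 130.1 CPM in the KO libraries, -0.16 ± 0.043, adjusted p = 0.00185), without overlap but not called on library totals (adjusted p = 0.190). DEFB1 and DMBT1 were at -1.45 ± 0.45 and -2.35 ± 0.44, DMBT1 near 1 CPM in WT.

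Prostaglandin genes fell together, 7 of 8 tested and none higher, with a median of -0.58. PTGS2 (COX-2), the inducible rate-limiting enzyme, was at 202, 203 and 203 CPM in the WT libraries and 85.2, 98.9 and 91.1 CPM in the KO libraries (-1.15 ± 0.049, adjusted p = 7.87e-25). HPGD, which degrades prostaglandin E2, was at 33.7, 32.2 and 35.4 CPM in the WT libraries and 17.2, 16.9 and 15.5 CPM in the KO libraries (-1.03 ± 0.096), and ABCC4, an exporter of prostaglandins, at 174, 164 and 175 CPM in the WT libraries and 77.95, 83.1 and 79.4 CPM in the KO libraries (-1.09 ± 0.04). Synthesis and breakdown genes were both lower, each without overlap. With DMSO all 8 were lower, PTGS2 by more (-1.505, adjusted p of the difference = 0.0105). Of the 7 lower with TNFα, 4 lie on the chromosomes named above.

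Genes of goblet and secretory cells, which make mucus, were higher in 17 of 30, 10 by at least 2-fold, and lower in 5. REG4, a secreted lectin, was at 10.8, 11.3 and 9.41 CPM in the WT libraries and 84.98, 83.02 and 81.7 CPM in the KO libraries (2.98 ± 0.067, adjusted p = 4.32e-36). AGR2, the disulphide isomerase needed for mucin folding, was at 177, 179.6 and 188 CPM in the WT libraries and 585, 629 and 575 CPM in the KO libraries (1.72 ± 0.037), and the gel-forming mucin MUC5AC at 12.6, 11.6 and 11.9 CPM in the WT libraries and 46.9, 51.3 and 50.6 CPM in the KO libraries (2.04 ± 0.21). The lowest KO library was more than 2 times the highest WT library for all 3. MUC2, the main colonic mucin, rose less (6.28, 6.65 and 6.92 CPM in the WT libraries and 9.56, 8.604 and 8.14 CPM in the KO libraries, 0.41 ± 0.14, adjusted p = 0.0151), and its call was lost without WT library 1 (0.0587) or KO library 1 (0.0794). ATOH1, which commits cells to the secretory lineage, was near 1 CPM (1.11, 0.858 and 0.8500 in WT, 1.24, 1.66 and 2.102 in KO, 0.84 ± 0.27) and not called without KO library 3 (0.101). The exceptions were strong: WFDC2, a secreted protease inhibitor, was at 32.9, 32.8 and 35.8 CPM in the WT libraries and 8.75, 7.71 and 9.44 CPM in the KO libraries (-1.96 ± 0.078) and TFF2 at -1.99 ± 0.27, and XBP1, FOXA1 and MUC20 were the others called lower. XBP1 lost its call on library totals alone (adjusted p = 0.399), and FOXA1 without WT library 1 (adjusted p = 0.0573) and on library totals alone (0.225). The median with DMSO was 0.79, beside 0.72 with TNFα, and the difference was called in 2 of the 30.

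Absorptive markers were higher in 11 of 16, 8 by at least 2-fold, and lower in 2, CDX2 and PHGR1. The adhesion molecules CEACAM5 and CEACAM6 were at 2.89, 3.33 and 2.67 CPM in the WT libraries and 17.4, 15.3 and 18.3 CPM in the KO libraries (2.52 ± 0.14) and 8.25, 8.37 and 8.800 CPM in the WT libraries and 50.1, 50.6 and 53.6 CPM in the KO libraries (2.603 ± 0.073). DPP4, a brush border peptidase, was at 15.8, 18.5 and 21.8 CPM in the WT libraries and 57.7, 56.7 and 54.7 CPM in the KO libraries (1.59 ± 0.069), and VIL1, which bundles microvillar actin, at 87.6, 86.05 and 92.6 CPM in the WT libraries and 140.4, 149 and 142 CPM in the KO libraries (0.69 ± 0.037). KO libraries exceeded WT libraries throughout. CEACAM family members share sequence, which could split reads, and 5 of the 11 lie on the chromosomes named above.

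Stem cell and Wnt genes were lower in 8 of 18 and higher in 6. LGR5, the receptor that marks crypt base stem cells, was at 6.77, 6.22 and 7.22 CPM in the WT libraries and 2.87, 2.08 and 1.66 CPM in the KO libraries (-1.61 ± 0.17, adjusted p = 1.68e-11), and WNT11, a ligand of the noncanonical pathway, was among the largest decreases of any gene, from 35.6, 34.1 and 34.2 CPM to 2.63, 3.15 and 3.801 CPM (-3.43 ± 0.093, adjusted p = 8.94e-33). DKK1, a secreted Wnt inhibitor, was higher at 56.02, 53.5 and 58.7 CPM in the WT libraries and 185, 202 and 174 CPM in the KO libraries (1.74 ± 0.05), less so than with DMSO (2.32, adjusted p of the difference = 1.33e-07). EPHB3 was at 2.06 ± 0.12 and MYC, a Wnt target, at -0.70 ± 0.036. On library totals alone 6 were lower and 6 higher. Only 5 enteroendocrine and tuft cell genes could be tested, and 1, NEUROG3, was called higher (0.71 ± 0.28, adjusted p = 0.0328). It lay near 1 CPM, and the call was lost without WT library 2 or 3 or KO library 2 or 3 (adjusted p = 0.0503 to 0.112), in DESeq2 (0.0787), without the filter on low counts (0.108) and with these 6 libraries alone (0.0554).

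Retinoic acid genes were lower in 11 of 13, 3 by at least 2-fold, with a median of -0.58; DHRS3 and GPRC5C were higher. TGM2, a transglutaminase and retinoid target, was at 1334, 1232 and 1252 CPM in the WT libraries and 336, 332 and 351 CPM in the KO libraries (-1.91 ± 0.042, adjusted p = 1.43e-30). RARG, a retinoic acid receptor, was at 72.8, 70.9 and 70.6 CPM in the WT libraries and 41.1, 43.9 and 45.6 CPM in the KO libraries (-0.71 ± 0.049), and ALDH1A1, which makes retinoic acid, at 718, 717 and 736 CPM in the WT libraries and 486, 502 and 461 CPM in the KO libraries (-0.58 ± 0.034). No KO library reached the lowest WT library in these. GPRC5B, a paralogue of GPRC5A, was at -1.67 ± 0.43 and GPRC5C at 0.46 ± 0.091.

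Among EGF receptor and ERK feedback genes 12 of 22 were lower and 5 higher. The immediate early gene EGR1 was at 106, 87.8 and 97.1 CPM in the WT libraries and 56.6, 41.7 and 54.3 CPM in the KO libraries (-0.92 ± 0.073), PHLDA1 at 425, 422 and 432 CPM in the WT libraries and 235, 212 and 242 CPM in the KO libraries (-0.89 ± 0.036) and EGFR itself at -0.67 ± 0.10, whereas the ERK-responsive factor ETV5 was higher (20.6, 20.8 and 21.4 CPM in the WT libraries and 31.1, 34.5 and 32.7 CPM in the KO libraries, 0.65 ± 0.073). Tight junction genes were called higher in 5 of 15 and lower in 4. CLDN2, which forms cation pores, was lower at 206, 199.6 and 209 CPM in the WT libraries and 115, 119 and 119 CPM in the KO libraries (-0.80 ± 0.047, adjusted p = 4.44e-17) and the scaffold TJP1 (ZO-1) was at -0.39 ± 0.044, while CLDN12 was at 62.6, 64.7 and 65.8 CPM in the WT libraries and 109, 109 and 101 CPM in the KO libraries (0.72 ± 0.048). CLDN23 was also called lower, a call lost without WT library 1 or 3 or KO library 1 or 2 (adjusted p = 0.0597 to 0.138), in DESeq2 (0.0582), without the filter on low counts (0.0693) and on library totals alone (0.0691). Of the 4 lower, 2 lie on the chromosomes named above.

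Cell cycle genes differed by less than 0.5 on the log2 scale, with 9 of 25 lower and 2 higher, E2F1 (0.42 ± 0.054) and the replication helicase subunit MCM6 (0.25 ± 0.033). CDC20, the activator of the anaphase-promoting complex, was at 189, 185 and 183 CPM in the WT libraries and 165, 154 and 159 CPM in the KO libraries (-0.22 ± 0.036), and MKI67 at -0.36 ± 0.12, a call lost without WT library 1 or KO library 1 or 2 (adjusted p = 0.052 to 0.0933), without the filter on low counts (0.0562) and on library totals alone (0.0808). Library totals alone gave 5 lower and 7 higher, so the direction of this list depended on the scaling. Endoplasmic reticulum chaperones were higher in 8 of 15, by at most 0.80 in CRELD2 (47.6, 47.9 and 52.5 CPM in the WT libraries and 84.8, 83.2 and 89.4 CPM in the KO libraries), and 1, DNAJC3, was lower (-0.38 ± 0.037). NRF2 targets were higher in 12 of 21, led by aldo-keto reductases: AKR1B10 was at 56.8, 54.9 and 59.2 CPM in the WT libraries and 253, 289.8 and 243 CPM in the KO libraries (2.199 ± 0.07), AKR1C2 at 1.71 ± 0.13 and AKR1C1 at 1.29 ± 0.094. The AKR1C genes are near-identical, so their counts are uncertain, and the prototypical targets NQO1 (-0.12 ± 0.055, adjusted p = 0.0832) and HMOX1 (-0.43 ± 0.13, called lower, as was FTL) did not rise. The call of HMOX1 was lost without WT library 1 (adjusted p = 0.0632), and NQO1 was called lower without KO library 2 (adjusted p = 0.0275), in DESeq2 (0.0431), without the filter on low counts (0.00552), with these 6 libraries alone (0.00642) and with the replicate block (0.0148). Cholesterol synthesis genes were lower in 10 of 19 and higher in 2, such as the lower FDFT1 (387, 367 and 378 CPM in the WT libraries and 211, 228 and 216 CPM in the KO libraries, -0.79 ± 0.037) and DHCR7 (-0.43 ± 0.034). MVD was among those called higher.

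The 14 largest increases and decreases were taken among called genes whose groups did not overlap and whose log2 CPM averaged 1 or more over the 6 libraries. CXCR4, the receptor for CXCL12, was at 2.52, 3.004 and 3.58 CPM in the WT libraries and 41.9, 46.4 and 41.5 CPM in the KO libraries (3.83 ± 0.14, adjusted p = 1.05e-19). PLCB4, a phospholipase C, was at 0.616, 0.751 and 0.182 CPM in the WT libraries and 7.26, 7.66 and 7.83 CPM in the KO libraries (3.84 ± 0.23), and NEBL, an actin-binding protein, at 3.51 ± 0.24. These transcripts were scarce in every WT library. The transcription factors CREB5 (3.49 ± 0.22) and MN1 (3.25 ± 0.24), the succinate receptor SUCNR1 (3.23 ± 0.22), the sialyltransferase ST6GAL1 (3.14 ± 0.14), the stress protein NUPR1 (2.85 ± 0.22) and the ferroxidase HEPH (6.96, 6.65 and 6.43 CPM in the WT libraries and 42.8, 44.4 and 41.8 CPM in the KO libraries, 2.68 ± 0.086) followed. The remaining 5 were OAS2, TRIM22, SAMD9L and XAF1, all interferon-induced, and REG4. All 14 were called higher with TNFα and 7FTA. With DMSO, CXCR4 was at 3.75 and HEPH at 2.47, both called higher without a called difference of effects.

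FBN2, an extracellular microfibril protein, was the largest decrease, at 14.3, 13.8 and 17.4 CPM in the WT libraries and 1.004, 1.48 and 1.07 CPM in the KO libraries (-3.69 ± 0.19, adjusted p = 2.71e-22), and WNT11 and TAGLN3 (-3.43 ± 0.20) came next. The gap junction protein GJB6 (-2.79 ± 0.15), the scaffold AKAP12 (27.5, 25.96 and 29.5 CPM in the WT libraries and 3.06, 3.92 and 4.96 CPM in the KO libraries, -2.79 ± 0.12), TMEM158 (-2.64 ± 0.21), the regulator of G protein signalling RGS17 (-2.56 ± 0.15) and the semaphorin receptor NRP2 (-2.54 ± 0.15) were also lower. AQP3, a water and glycerol channel, was at 294, 271 and 271 CPM in the WT libraries and 49.04, 40.9 and 49.1 CPM in the KO libraries (-2.58 ± 0.09). Its highest KO library lay far below its lowest WT library. PADI1 and PADI2, neighbouring genes for enzymes that convert arginine to citrulline, were both lower (-2.72 ± 0.11 and -2.53 ± 0.13), as were BLMH (-2.49 ± 0.084), DMKN (-2.48 ± 0.15) and WWTR1 (-2.48 ± 0.24), the transcriptional coactivator TAZ. All 14 were called lower with TNFα and 7FTA as well. With DMSO, FBN2 was at -3.01 and AKAP12 at -1.69, both called lower, and only for AKAP12 of the 2 was the difference of effects called (adjusted p = 0.00113).

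**Figure D4:**
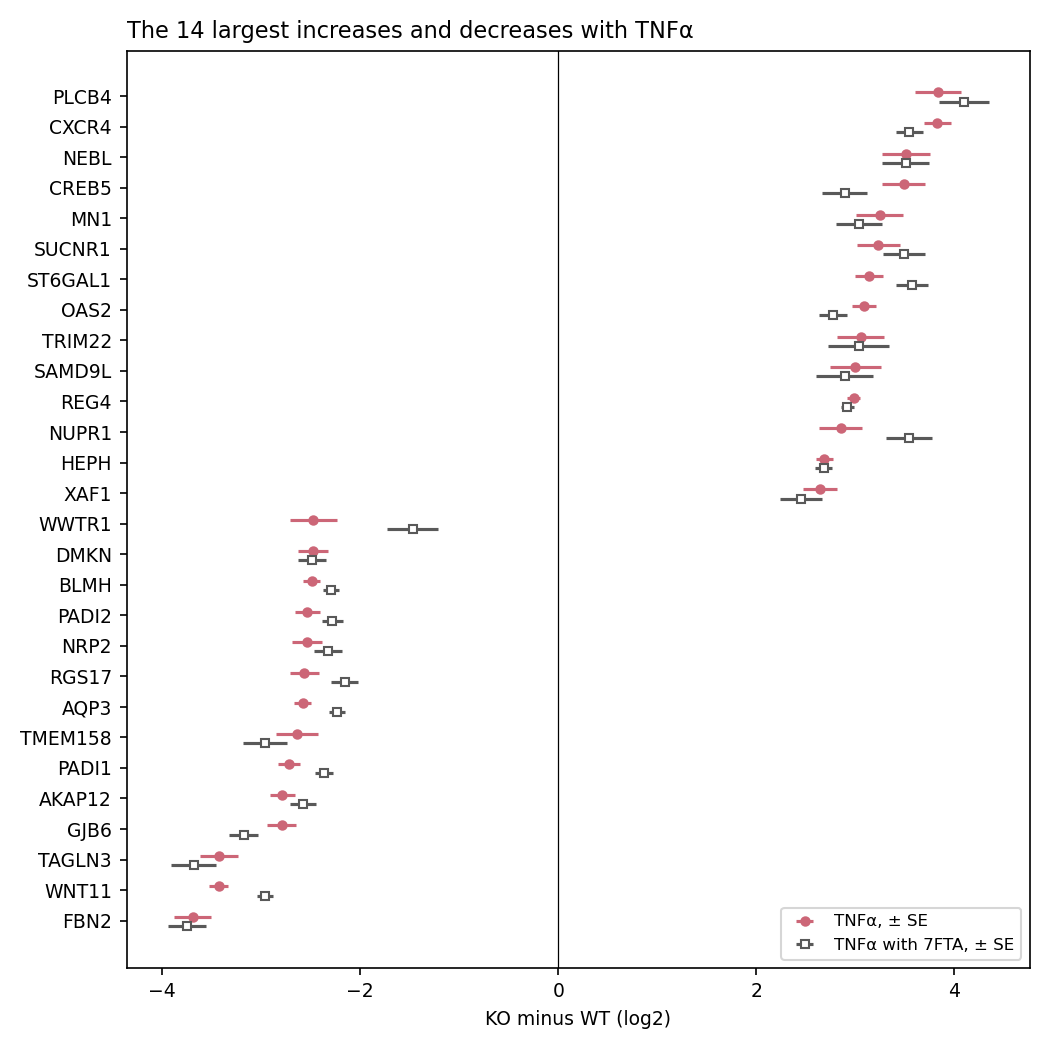
KO minus WT log2 difference ± SE of the 14 largest increases and 14 largest decreases with TNFα (red circles), with the value of the same gene with TNFα and 7FTA (open squares). The signs are the same in both comparisons for all 28 genes, and CXCR4 was 3.83 with TNFα and 3.55 with both.

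Further genes had a genotype difference with TNFα unlike that with DMSO. ETS1, a transcription factor, was -0.34 with TNFα and 0.73 with DMSO (adjusted p of the difference = 3.93e-12), so the sign turned. ABAT, which breaks down GABA, went from 0.90 with DMSO to -0.64 (adjusted p = 0.00164). IL4I1, a secreted amino acid oxidase, was -0.13 with DMSO (adjusted p = 0.815) and -1.57 with TNFα (34.1, 29.1 and 27.7 CPM in WT, 11.6, 10.1 and 8.94 CPM in KO, adjusted p of the difference = 0.0416). SPRR1B, a cornified envelope protein, went from 0.52 to -0.97 (adjusted p = 0.0461) and FAM160A1 from 0.23 to -0.80 (adjusted p = 0.000809). IL6R was higher with DMSO (1.28), and with TNFα its difference was 0.32 ± 0.14 (adjusted p = 0.0541, of the difference 0.00197). UBA7, the activating enzyme for ISG15, went from 0.097 with DMSO to 1.36 (adjusted p = 0.00831).

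The differences were not spread evenly over the chromosomes. Positions come from GENCODE 29 (GRCh38) and were found for 13992 of the genes tested. The median log2 difference was -0.46 on chromosome 13, -0.22 on chromosome 8, -0.18 on chromosome 9 and -0.11 on chromosome 19, and lay between -0.027 and 0.092 on each other chromosome from 1 to 22 and X. On chromosome 6 the 85 genes from position 148000000 on had a median of -0.44, with 55 lower and 3 higher, beside 0.072 for the 650 genes before it, a boundary chosen on earlier results of these data. Off chromosomes 6, 8, 9, 13 and 19, 3076 of 11106 genes were higher and 2350 lower. A difference in chromosome copies between the lines was not tested, and these shifts and the genotype cannot be told apart. Among interferon-related genes off those chromosomes, 42 of 45 effectors, 13 of 16 sensors and 8 of 10 MHC class I genes were called higher. On them the counts were 5 of 5 effectors, 1 of 2 sensors and 11 of 11 MHC class I genes. Of the genes named as lower, TAB2, SOD2, AKAP12 and RGS17 lie in the stretch of chromosome 6, ABCC4, GJB6 and DNAJC3 on chromosome 13, and TNFRSF10B and FDFT1 on chromosome 8. ALDH1A1, AQP3 and CD274 lie on chromosome 9, and CEACAM1, ICAM1, DMKN and IL4I1 on chromosome 19. This is not a full list. The NKG2D ligand genes ULBP1 and ULBP2 also lie in that stretch of chromosome 6. The values of all these genes were measured beside neighbours that were more often lower than higher. Genes named as higher also lie there, such as DDX58 on chromosome 9 and CEACAM5, CEACAM6 and LGALS4 on chromosome 19.

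**Figure D5:**
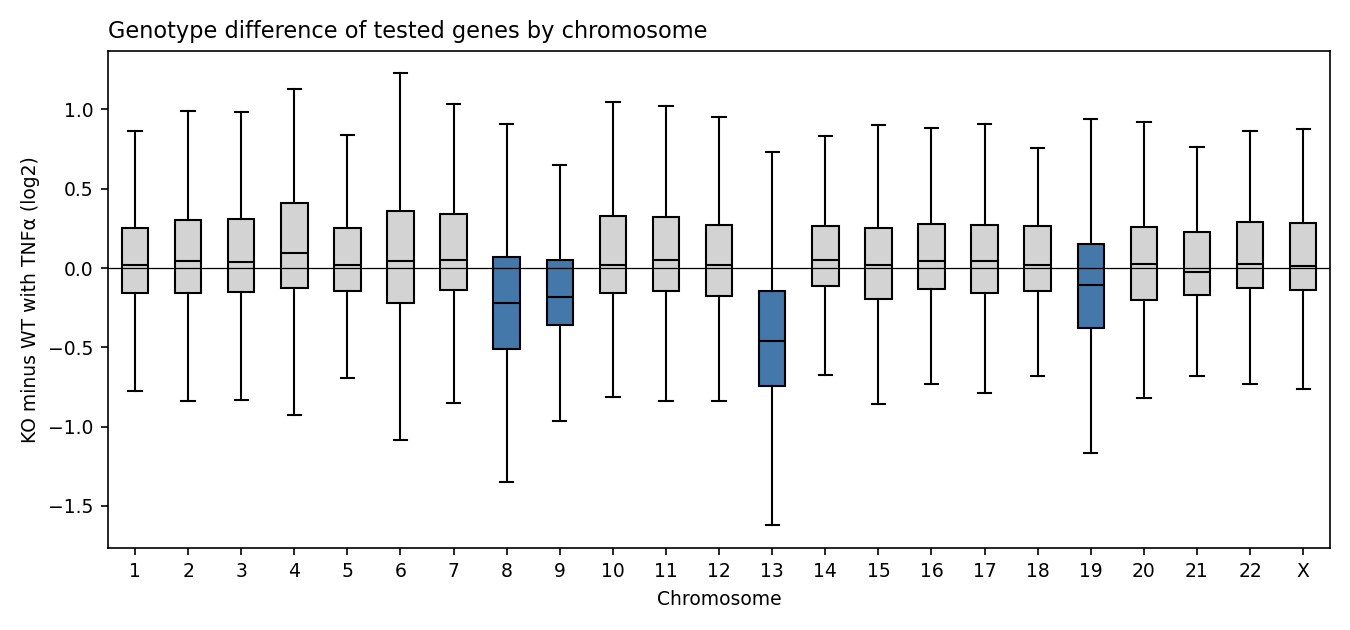
KO minus WT log2 difference with TNFα of tested genes on each chromosome (boxes are quartiles with the median, whiskers reach 1.5 times the box, outliers not drawn). Blue boxes mark the 4 chromosomes with the lowest medians, 13, 8, 9 and 19.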

How the data were processed

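Poly(A) RNA of 24 HT-29 libraries was sequenced as single-end reads. The deposited table holds whole-number counts per gene, not normalized. Per the submitters' processing notes, STAR 2.6.1d, featureCounts 1.6.4, DESeq2 1.20.0 and build GRCh38 were used; the annotation release and strand setting are not given in the sources used here.

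From the deposited counts, edgeR 4.0.16 was fitted in R 4.3.3 to all 24 libraries with 1 mean per group (8 groups), TMM factors and the filterByExpr filter, which left 14059 of 60623 genes. Contrasts were tested with the robust quasi-likelihood F test, and p-values were Benjamini-Hochberg adjusted over all 14059 genes at 0.05. Errors of log2 differences are standard errors from that test. CPM values use TMM-scaled library totals. All columns of samples were matched to labels. The common biological coefficient of variation was 4.06%. On simulated counts for the comparison with TNFα (13795 genes), 62% of genes shifted by 0.5 on the log2 scale were called. Of genes shifted by 1, 85% were called, and 4.55% of calls on those counts were false. The share of false calls in the measured libraries was not tested.

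The comparison, the 28 gene lists and the tests were chosen with earlier results of these data known. Named genes were GPRC5A, the 14 largest changes in each direction, the 3 list members with the smallest p, a fixed set of interferon, TNF and epithelial genes, and the 8 largest differences between genotype effects of each sign. Other list members were named after their values were seen. Gene positions are from GENCODE 29, matched by gene ID. Alternatives were other scaling, other filters, DESeq2 1.42.0, fewer libraries, a replicate block and the omission of 5 chromosomes. Set tests were left out. The 6 libraries with 7FTA alone entered the fit and its estimate of spread but no contrast. A few genes are not reported here.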

Additional observations from a re-analysis of the deposited data

Results flagged for a closer look

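Of the 223 genes named with a result in the text, 57 had a genotype difference with TNFα that differed from the one with DMSO in the test of the difference itself (edgeR quasi-likelihood test, adjusted p under 0.05 over all 14059 genes). The values below are KO minus WT with TNFα, less KO minus WT with DMSO, on the log2 scale. For 41 genes the value was positive and for 16 negative. Some of these genes were named because they had the largest such values, so these counts describe the genes named and not the genome.

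Interferon genes held many of the positive values. They were OAS2 1.48, ISG15 0.57, MX1 1.25, IFIT1 0.95, IFIT3 0.83, TRIM22 1.61, XAF1 1.37, IFI44L 1.61, HERC6 1.23, EPSTI1 1.805, IFITM2 0.38, IFITM3 0.88, PLAAT4 0.42, DDX58 0.67, IFIH1 0.42, TLR3 1.295, EIF2AK2 0.61, IRF7 0.49, USP18 0.73 and UBA7 1.26. In genes of antigen presentation, chemokines, cytokines, surface molecules, cell death, NF-κB, defence and prostaglandin synthesis, the values were PSMB9 0.94, TAPBPL 0.67, ERAP2 0.27, CD74 0.78, CTSS 0.98, CXCL1 0.76, CXCL11 1.16, CCL28 0.81, TNFSF10 1.13, LGALS9 0.71, TNFRSF14 0.43, CEACAM1 0.32, GSDMB 1.42, NFKBIA 0.38, TNFAIP2 0.55 and PTGS2 0.36. A positive value does not always mean a larger difference: CD74, CEACAM1, CLDN2, CTSS, PTGS2, TGM2 and TSPAN9 were lower in KO in both conditions, and less so with TNFα. IFITM2, PLAAT4, TAPBPL and NFKBIA were below WT with DMSO and not called with TNFα. The last positive values were EPHB3 0.58, TSPAN9 0.36, CLDN2 0.34, TGM2 0.34 and MCM6 0.22.

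The negative values were ABAT -1.54, SPRR1B -1.49, IL4I1 -1.44, AKAP12 -1.098, ETS1 -1.07, NRP2 -1.05, FAM160A1 -1.04, IL6R -0.96, PADI1 -0.64, DKK1 -0.58, CD55 -0.49, KRT17 -0.47, IFNGR2 -0.30, MMP7 -0.28, MCL1 -0.24 and DNAJC3 -0.21. ETS1 and ABAT were called lower in KO with TNFα and higher with DMSO, and CXCL1 and TNFAIP2 the other way round. CD55, DKK1, KRT17 and MMP7 were called higher in both, and by less with TNFα. The smallest adjusted p of the 57 was 3.93e-12 and the largest 0.0499.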

How the results depend on the processing

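GPRC5A was lower in KO under each alternative, between -1.66 and -1.56 (log2). The interferon-stimulated effectors called higher numbered 46 to 48 under each alternative that kept all chromosomes and 42 without chromosomes 6, 8, 9, 13 and 19. No called gene among the 232 recomputed changed sign under the alternatives run. Of those not called, IFNAR1, CANX, IFITM2, IKBKE, PLAAT4, TBK1 and TNFRSF1A, all within 0.05 of 0 on the log2 scale, did so in at least 1.

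Counts moved past 1.5 times as follows. With library totals alone, 2398 genes were lower with TNFα and 7FTA. With a mean CPM of at least 1, 429 genes were higher and 236 lower by at least 2-fold with TNFα, since fewer genes were tested. Without genes on chromosomes 6, 8, 9, 13 and 19, again fewer genes, 2333 were lower with TNFα, 2439 with TNFα and 7FTA, and 2196 with DMSO. With the replicate block, 317 genes had a more negative genotype effect with TNFα than with DMSO; the cause was not tested. The replicate block gave 3684 higher and 3686 lower with TNFα and, among 232 genes, added the calls of IFNGR1, IL6R and NQO1. The correlations of same-numbered KO and WT residuals over all genes tested were -0.026, -0.029 and 0.012. Whether libraries with the same replicate number shared a batch was not tested.

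Calls of IFNGR1, IFNLR1, TNFRSF1A, NFKBIA, PAX4, IL6R, HERC5, TAPBPL and TBK1 were gained on library totals alone, and 12 of the 232 genes lost theirs, among them LCN2, TSPAN9 and TSPAN14. Leaving out 1 library gained the call of IFNLR1 (without WT library 1, adjusted p = 0.0190), PAX4 (without WT library 3, 0.0168), IFNGR1 (without KO library 3, 0.0361), IL6R (without KO library 1, 0.0463), TAPBPL (without KO library 1, 0.0250), NQO1 (without KO library 2, 0.0275) and HERC5 (without KO library 3, 0.0288), all in edgeR. Genes below about 1 CPM, such as the interferon ligands, were limited by depth, and intervals on their counts cover counting error only, since reads carried no molecular identifiers.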

Other observations

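Further gene families, grouped by symbol after their values had been seen, are given as counts of members called in KO against WT with TNFα, with no test. These counts are to be read against 25.5% higher and 25.1% lower among all genes tested. Not all families grouped are described. Of 10 collagen genes 2 were higher and 2 lower, and of 8 laminin genes 3 were higher and 2 lower. Of the 3 peptidylarginine deiminase genes tested, all were lower. Of 11 S100 genes, 6 were lower, among them S100A4 (-1.68 ± 0.078), S100A2 (-1.43 ± 0.13) and S100A5 (-1.14 ± 0.16), and S100P (0.32 ± 0.089) and S100A14 (0.49 ± 0.048) were higher. Among 6 metallothionein genes, which bind zinc and copper, MT1A (-2.88 ± 0.64), MT1X (-1.16 ± 0.17), MT1F (-0.72 ± 0.28) and MT2A (-0.47 ± 0.17) were lower; these genes are near-copies, so reads could be split among them. The call of MT1F was lost without WT library 1 or 3 or KO library 2 or 3 (adjusted p = 0.0563 to 0.209) and on library totals alone (0.0511), and that of MT2A without WT library 3 or KO library 2 or 3 (adjusted p = 0.0551 to 0.107), without the filter on low counts (0.0553) and on library totals alone (0.0668). Keratin genes were lower in 6 of 14, with KRT13 at -2.19 ± 0.073 and KRT23 at -1.48 ± 0.18, and higher in KRT17 and KRT6B, the latter call lost without WT library 3 or KO library 1 or 3 (adjusted p = 0.0563 to 0.085). On library totals alone 2 metallothionein genes were called lower, and 4 keratin and 4 S100 genes were higher.

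Tetraspanins were higher in 9 of 14, with TSPAN33 at 1.66 ± 0.27 and TSPAN8 at 0.69 ± 0.039, and lower in 3, TSPAN12, TSPAN9 and TSPAN14 (1 on library totals alone). The call of TSPAN12 was lost without WT library 3 or KO library 1 (adjusted p = 0.0615 to 0.157). Integrin chains were lower in 7 of 15, with ITGA2, the collagen receptor chain, at -1.198 ± 0.07, and higher in ITGA1, ITGB4 and ITGB6. Of 77 ribosomal protein genes, 31 were lower and 5 higher, none by 2-fold. On library totals alone these were 20 lower and 16 higher. Of 7 matrix metalloproteinases, MMP7, MMP13, MMP15 and MMP24 were higher, MMP13 at 1.86 ± 0.40.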
